A study of Ovis aries with 7 samples.

Results

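Short reference genes of 150 bases or less were followed in RNA-seq libraries of sheep tail fat. A gene was taken as short when its reference ID (starting with ENSOARG) had a span of at most 150 bases in the position column, lay outside the mitochondrial chromosome and stood in all 7 deposited tables. This gave 3423 genes of the 10202 reference IDs present in all 7 tables. The adipose tissue of the tail was taken from male lambs of 2 breeds slaughtered at 7 months, 4 Zel (thin-tailed) and 3 Ghezel (fat-tailed). All lambs had received the same diet, and each gave 1 poly(A)-enriched library, numbered within its breed after the deposited replicate numbers (Zel 1 to 4, Ghezel 1 to 3). No agent was given and no allele was altered, so the breeds are the only groups, and each sample was a piece of whole tissue that holds several cell types. The markers of adipose tissue were not analysed here. The tables pair the IDs with no gene symbol, and the few pairs of ID and symbol that the paper prints were not used. In whole tissue, fewer cells of a type and less RNA per cell cannot be told apart.

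Gene models this short in a vertebrate annotation are mostly small RNA genes: microRNA precursors, small nucleolar RNAs that guide the modification of ribosomal RNA, the small nuclear RNAs of the spliceosome, and many pseudogene copies of these. Most of their mature RNAs carry no poly(A) tail, so enrichment with oligo(dT) largely removes them, and a read of the length used in such a library is as long as the whole gene or longer. FPKM, the unit of the deposited values, is the number of sequenced fragments divided by the effective length of the transcript and by the mapped fragments of the library. The effective length is the number of positions where a fragment could start, and it shrinks quickly as a transcript approaches the length of a fragment.

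The spans ran from 40 to 150 bases, with a median of 104 and quartiles of 83 and 111. The most frequent span was 107 bases, with 479 genes (14.0%), followed by 104 bases, with 115 genes. Gene models of the spliceosomal U6 RNA are commonly near the first of these lengths, but the tables name no RNA class, so none was assigned to any gene here. The genes lay on 27 chromosomes, 3382 in all, and on 34 unplaced scaffolds, 41 in all. Positions count from 1, so each start is 1 base above the deposited start, which counts from 0, and the labels name Oar_v3.1 as the build.

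The Cufflinks confidence interval of an FPKM implies the fragments behind it. Over all loci the 7 libraries implied 7308112 to 7827375 fragments. These totals are not the sequencing depth, and they lie well below the mapped reads that the paper lists per library. They sum over loci that can overlap, and whole numbers were checked at the short genes only. At an assembled locus of 1229 bases in Zel 4, for example, 530 FPKM implied 0 fragments after rounding. At the short genes, 41 of the 23961 values were above 0, and each of the 41 implied a whole number of fragments within 0.02. These numbers cover counting error only, and PCR copies cannot be told from separate molecules.

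Nearly all short genes were listed at 0. In all, 3400 of the 3423 (99.3%) were listed at 0 in every library and 23 (0.672%) were above 0 in at least 1. Zel 1 had 10 genes above 0 (0.292%, exact 95% binomial interval 0.140 to 0.537%). Zel 2 had 12 (0.351%, 0.181 to 0.612%), the most of any library, while Zel 3 had 5 (0.146%, 0.0474 to 0.341%). Zel 4 had 3 genes above 0 (0.0876%, 0.0181 to 0.256%). Ghezel 1 also had 3, Ghezel 2 had 2 (0.0584%, 0.00708 to 0.211%) and Ghezel 3 had 6 (0.175%, 0.0644 to 0.381%). These intervals take the genes as independent draws within 1 library. They do not measure the variation from library to library, and libraries or breeds cannot be compared by them. The breeds overlapped, since Zel 4 equalled Ghezel 1 and Ghezel 3 exceeded Zel 3. The Zel mean was 0.219% ± 0.123 (SD, n = 4), against 0.107% ± 0.0608 (SD, n = 3) for Ghezel. The difference of 0.112 percentage points was not larger than that spread (exact permutation test over all 35 ways to divide the libraries, two-sided, p = 0.286, with 0.0286 the smallest p of the design).

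The files follow 2 ways of naming, one shared by Zel 2, Ghezel 1 and Ghezel 2 and the other by Zel 1, Zel 3, Zel 4 and Ghezel 3. No source used here says what the naming stands for. The libraries of the first set held 33662 to 34352 loci and those of the second 37006 to 42839. Reference genes over 150 to 300 bases had 2957 to 3928 implied fragments in the first set and 4074 to 10720 in the second. The first set has 1 Zel and 2 Ghezel libraries and the second 3 Zel and 1 Ghezel, so naming and breed are partly confounded. For the share of short genes above 0, the difference between the breeds was 0.278 percentage points within the first set and 0 within the second. Each set has 1 library of a breed, so these are values with no test (the smallest exact permutation p would be 0.333 and 0.250).

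Short genes were above 0 less often than longer reference genes chosen in the same way. Of the 422 genes over 150 to 300 bases, 8.53 to 11.6% were above 0 per library. The share was 11.0 to 16.6% for the 1640 genes over 300 to 1000 bases and 9.88 to 18.3% for the 4717 genes over 1000 bases. The short genes were lower in 7 of 7 libraries against each class. The mean within-library differences were -9.31 ± 1.00, -14.6 ± 2.34 and -15.2 ± 3.38 percentage points (SD, n = 7), each with an exact sign-flip permutation p of 0.0156 (two-sided, adjusted over the 3 classes 0.0156), the smallest that 7 libraries allow. RNA class and length cannot be told apart in this comparison. Of the 10202 reference IDs present in all 7 tables, 8006 were at 0 in every library and 338 were above 0 in all 7. Loci that a library lists under an ID of its own are not among them. The shares therefore hold for these IDs and not for all expressed genes of the tissue.

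**Figure D1:**
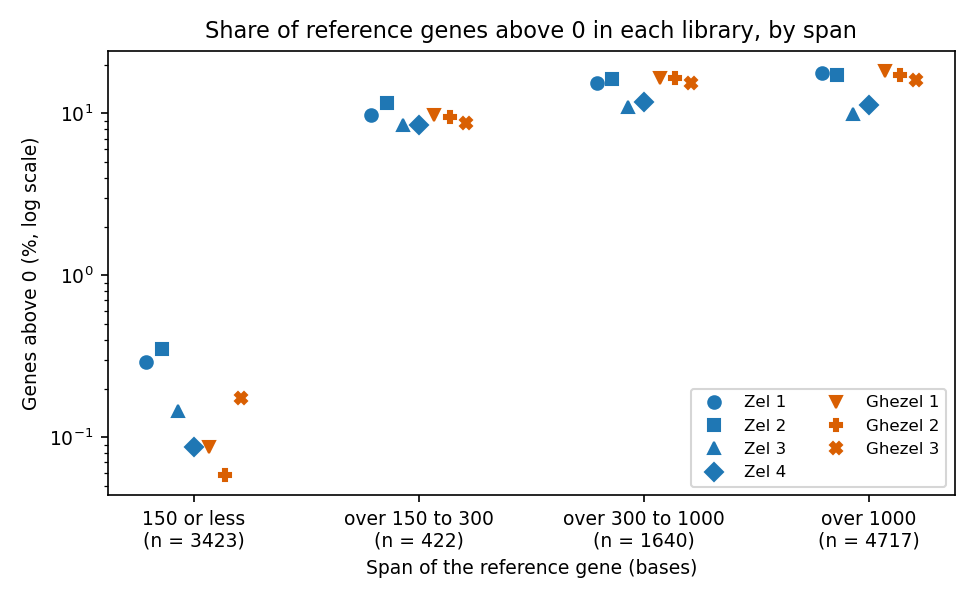
The share of reference genes with an FPKM above 0 (vertical axis, percent, log scale) in each of the 7 libraries (symbols; blue, Zel; orange, Ghezel) is plotted for 4 classes of span (horizontal axis, bases). The short genes sit between 0.0584 and 0.351%, and no library of another class is below 8.53%.

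The short genes above 0 rested on very few fragments. Of the 41 values, 19 rested on 1 fragment, 9 on 2 and 13 on 3 or more, and the largest was 11. The 7 libraries together held 116 fragments at these genes, of which 84 (72.4%) lay in 3 genes. Per library the sum was 18, 30, 8 and 17 fragments in Zel 1, 2, 3 and 4, and 14, 10 and 19 in Ghezel 1, 2 and 3. Zel 2 was the highest and Zel 3 the lowest library, so the range of Zel enclosed that of Ghezel. Against all implied fragments of the library this was 2.41 ± 1.27 fragments in each 1000000 for Zel (SD, n = 4) and 1.89 ± 0.550 for Ghezel (SD, n = 3; exact permutation test, two-sided, p = 0.657). That base is the implied total and not the sequencing depth. The difference of the sums themselves was 3.92 fragments (exact permutation test, p = 0.600), and it was 18.0 fragments within the first naming of the files and -4.67 within the second, a comparison chosen after the data were seen. Without Zel 2 it was 0 fragments.

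Detection was mostly private to a library. Of the 23 genes, 17 were above 0 in 1 library alone, 3 in 2 libraries, 1 in 5, 1 in 6 and 1 in all 7. Zel 2 held 8 of the 17 and Zel 1 held 5, Zel 4 held none, and the other libraries held 1 each. By breed, 15 of the 23 genes were above 0 only in Zel libraries, 3 only in Ghezel libraries and 5 in both, with 4 Zel libraries against 3 Ghezel libraries. These counts rest on 1 or 2 fragments for most genes, and a value of 0 in a library allows up to 3 fragments. The same counts are not given here for longer reference genes, so nothing particular to the short genes is read from these.

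**Figure D2:**
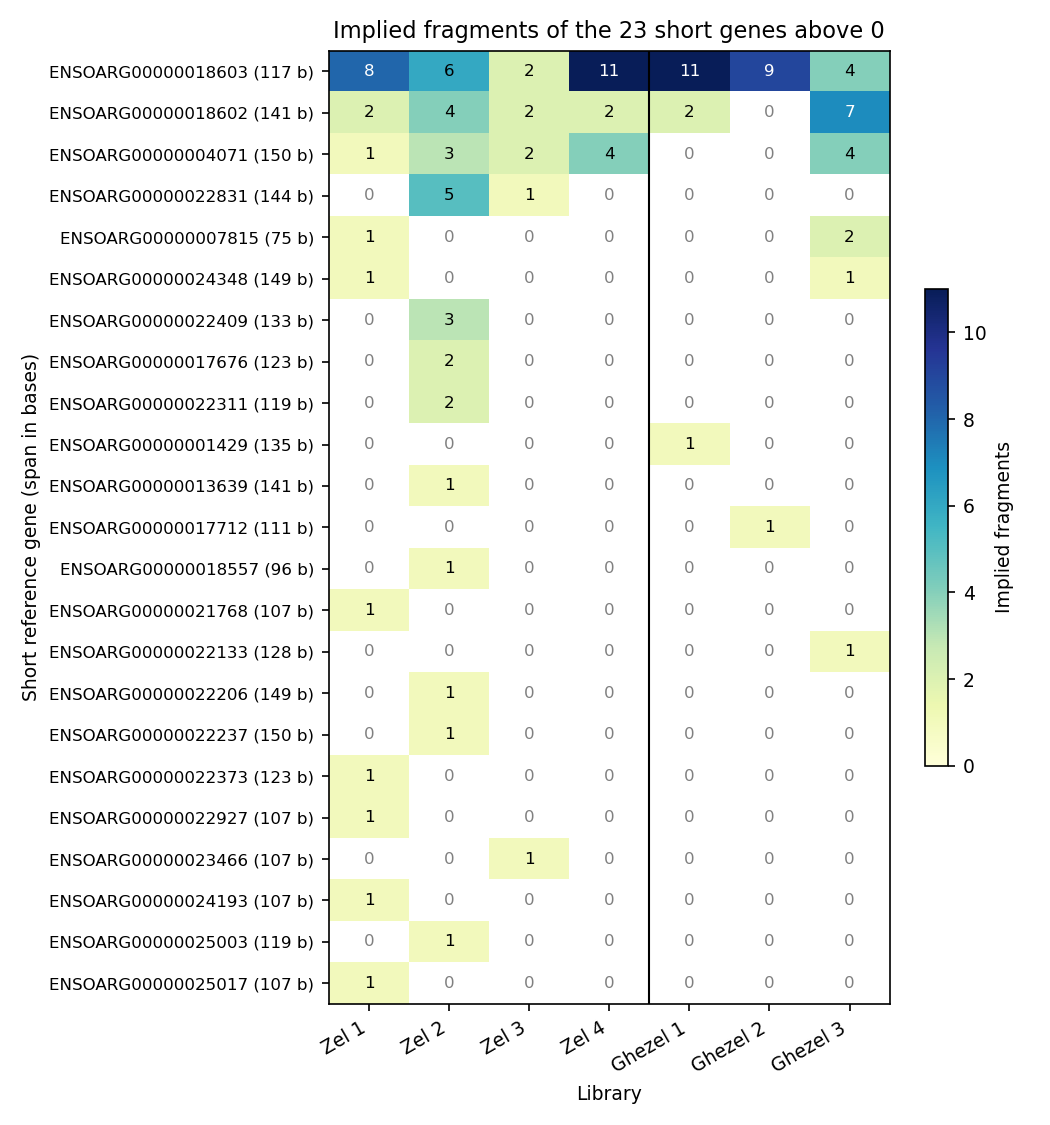
Implied fragments (number in each cell, and colour) of the 23 short genes above 0 (rows, with the span in bases) in the 7 libraries (columns; the line separates Zel from Ghezel). The first 3 genes hold 84 of the 116 fragments, and most of the remaining genes have 1 fragment in 1 library.

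ENSOARG00000018603 was the only short gene above 0 in all 7 libraries. It spans 117 bases of an unplaced scaffold, JH921762.1, from 10769 to 10885. Among Zel libraries its FPKM was 138027 on 8 fragments in Zel 1, 53989 on 6 in Zel 2, 15636 on 2 in Zel 3 and 114213 on 11 in Zel 4. Among Ghezel libraries it was 142970 on 11 fragments in Ghezel 1, 123933 on 9 in Ghezel 2 and 64666 on 4 in Ghezel 3. Zel 3 was the lowest and Ghezel 1 the highest library, while Zel 1 and Zel 4 lay within the Ghezel range and Zel 2 below it. By FPKM the gene ranked 10 to 64 among all loci of a library. The deposited interval was wide, for example 40427 to 235627 in Zel 1, and it reached 0 in Zel 3 and Ghezel 3.

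The mean FPKM of ENSOARG00000018603 was 80466 ± 55845 in Zel (SD, n = 4) and 110523 ± 40838 in Ghezel (SD, n = 3; exact permutation test, two-sided, p = 0.457). In fragments the means were 6.75 ± 3.78 and 8.0 ± 3.61 (exact permutation test, two-sided, p = 0.686). On the log2(FPKM + 1) scale Zel minus Ghezel was -0.79 with a standard error of 0.79 (limma, adjusted p = 0.657), and the sign turned under quantile normalization, with 0.23. Within the naming sets the FPKM difference took opposite signs, -79462 in the first and 24626 in the second (also added with the data in view). The difference between the breeds was therefore not larger than the spread between libraries at this depth.

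The only other locus on that scaffold was a gene of 123 bases, 2371 bases away, listed at 0 in every library. Among the 337 other reference IDs above 0 in every library, the pattern over the 7 libraries was most like that of ENSOARG00000020102, of 723 bases on chromosome 20 (Pearson r = 0.95 of log2(FPKM + 1)), and of ENSOARG00000011821, of 7263 bases on the X chromosome (r = 0.90). Both were lowest in Zel 3. These correlations are over 7 libraries that share their depth and preparation with the gene, and they describe the pattern only.

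ENSOARG00000018602 was above 0 in 6 of the 7 libraries. It spans 141 bases of the unplaced scaffold JH924890.1, from 127 to 267. Its FPKM was 7571 on 2 fragments in Zel 1, 10372 on 4 in Zel 2, 3755 on 2 in Zel 3 and 4758 on 2 in Zel 4. It was 6918 on 2 fragments in Ghezel 1, 0 in Ghezel 2 and 19764 on 7 in Ghezel 3. The highest and the lowest library were both Ghezel, so the Zel libraries lay within the Ghezel range. On the same scaffold the libraries held an assembled locus of about the same place, 933 to 940 bases away. Its implied fragments were 39, 97, 1317 and 667 in Zel 1, 2, 3 and 4 and 33, 27 and 225 in Ghezel 1, 2 and 3. Its order differed from that of the short gene, as Zel 3 was highest at the assembled locus with 2 fragments at the short gene.

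ENSOARG00000004071 was above 0 in 5 libraries. It spans 150 bases of chromosome 26, from 5666629 to 5666778, and is at the upper limit of the spans taken. Its FPKM was 349 on 1 fragment in Zel 1, 1349 on 3 in Zel 2, 471 on 2 in Zel 3 and 1000 on 4 in Zel 4. It was 0 in Ghezel 1 and Ghezel 2 and 831 on 4 fragments in Ghezel 3. All 4 Zel libraries were above 0, and Ghezel 3 lay among them. Read as up to 3 fragments, a listed 0 at this span allows 624 to 1356 FPKM by the worth of a fragment in the libraries above 0, a range that reaches past the highest value. With limma its unadjusted p was 0.034 and its adjusted p 0.657. Without Ghezel 3, the 1 Ghezel library above 0, the gene passed the limma threshold, with an adjusted p of 0.0031. The remaining Ghezel libraries were then all at 0, so the removal set this contrast and nothing about the breeds can be read from it. On implied fragments in place of FPKM the log2 difference was 0.952 (limma, unadjusted p = 0.225). Of the settings that kept every library, only array weights called the gene.

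**Figure D3:**
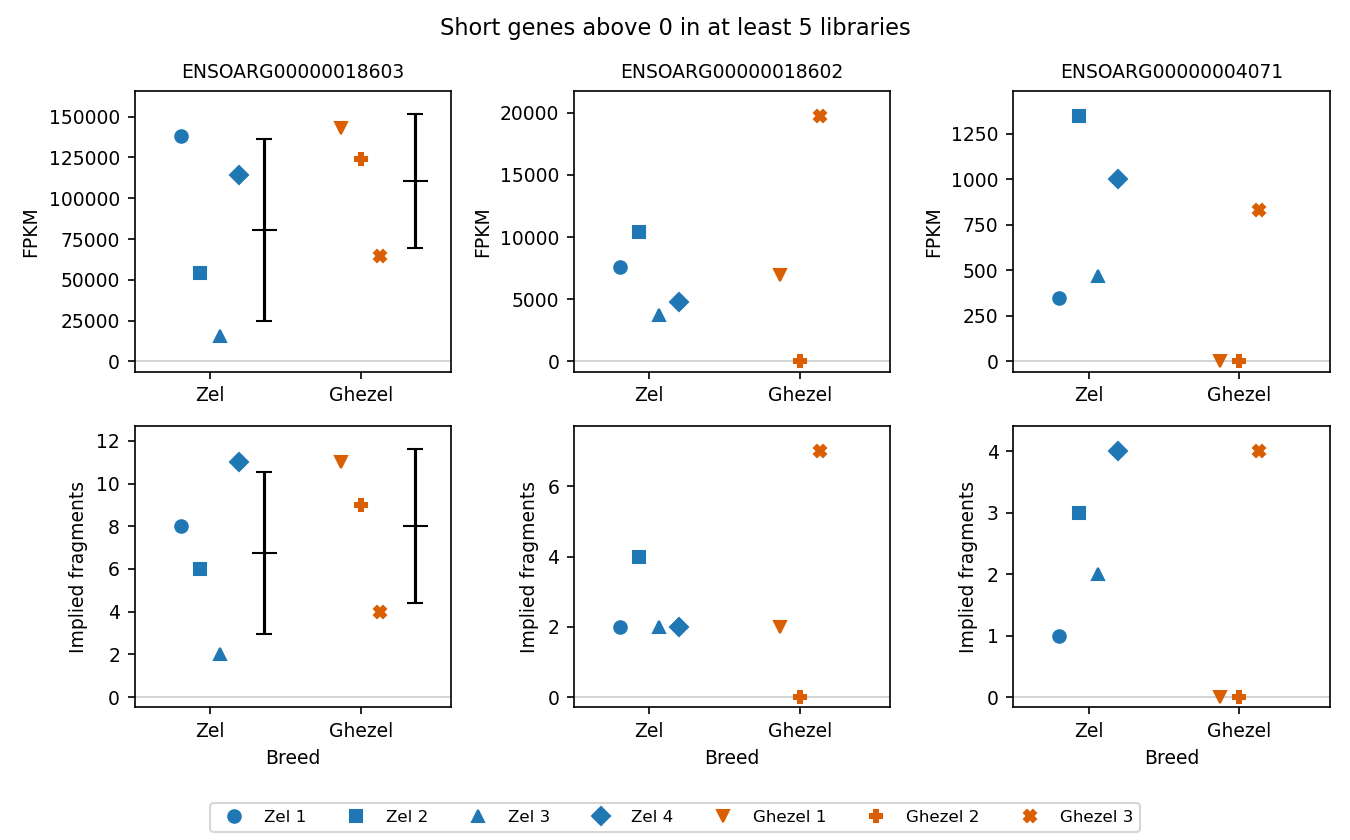
FPKM (upper row) and implied fragments (lower row) of the 3 short genes above 0 in at least 5 libraries, by breed, with 1 symbol per library. For ENSOARG00000018603 the black marks give the mean and SD of each breed; the breeds overlap in all 3 genes.

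Another 3 genes were above 0 in 2 libraries each. ENSOARG00000022831, of 144 bases on chromosome 24, had 6874 FPKM on 5 fragments in Zel 2 and 818 on 1 in Zel 3. ENSOARG00000007815, of 75 bases on chromosome 6, rested on 1 fragment in Zel 1 and 2 in Ghezel 3. ENSOARG00000024348, of 149 bases on chromosome 21, had 431 FPKM on 1 fragment in Zel 1 and 256 on 1 in Ghezel 3. The first was above 0 in Zel only, and the other 2 genes in 1 library of each breed. ENSOARG00000024348 lay inside longer loci in every library. Of these, the locus with the highest FPKM spanned 12716 to 113128 bases, with 150 to 384 implied fragments.

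Among the 17 genes of 1 library, 3 rested on more than 1 fragment, all in Zel 2. These were ENSOARG00000022409, of 133 bases on chromosome 2, with 10230 FPKM on 3 fragments, and ENSOARG00000017676 and ENSOARG00000022311 on unplaced scaffolds, with 11282 and 15108 FPKM on 2 fragments each. Another 5 genes had 1 fragment in Zel 2, from 452 FPKM at ENSOARG00000022237 (150 bases, chromosome 3) to 33106 at ENSOARG00000018557 (96 bases, an unplaced scaffold). The genes between were ENSOARG00000022206 with 565, ENSOARG00000013639 with 2240 and ENSOARG00000025003 with 7554 FPKM. The shorter the gene, the higher the FPKM of its 1 fragment.

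In Zel 1, ENSOARG00000022373 had 9076 FPKM, and 4 further genes had the same 25412 FPKM on 1 fragment each. These 4, ENSOARG00000021768, ENSOARG00000022927, ENSOARG00000024193 and ENSOARG00000025017, lie on chromosomes 22, 20, 16 and 9 and all span 107 bases. In Zel 3 the fifth detected gene of that span, ENSOARG00000023466 on chromosome 6, had 11215 FPKM on 1 fragment. So 5 of the 479 genes of 107 bases were above 0, none of them in more than 1 library. A listed 0 at 107 bases allows 33645 to 76239 FPKM, above each of these values. Copies of a small RNA gene can be nearly identical, and no source used here says how the authors' counting divided reads between such copies.

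The Ghezel libraries each had 1 gene of their own, on 1 fragment. They were ENSOARG00000001429 in Ghezel 1 with 4058 FPKM, ENSOARG00000017712 in Ghezel 2 with 19965 and ENSOARG00000022133 in Ghezel 3 with 7363. The last lies on chromosome 24 inside a locus of 2392 bases (2519 in Ghezel 2) whose interval implied 2120 to 3666 fragments per library. At such longer loci the implied number was not checked as a count. Here 2350 FPKM implied 2143 fragments in Zel 1, and 3842 FPKM implied 2231 in Zel 2. The tables give no strand, so a fragment of the short gene and one of the longer transcript around it cannot be told apart.

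FPKM and fragments gave very different pictures of these genes. The FPKM that 1 fragment was worth fell from 843184 at 75 bases to 349 at 150 bases in Zel 1, a ratio of 2416 for a span ratio of 2. In Ghezel 3 the same ratio was 3029. Between libraries at the same span it varied far less, 2.02 to 2.27 times at 107, 117, 141 and 150 bases. Zel 3 was lowest at 107, 117 and 141 bases. The order of the genes by FPKM differed from their order by fragments. ENSOARG00000007815 had the highest FPKM of any short gene, on 1 and 2 fragments, while ENSOARG00000004071 had at most 1349 FPKM on up to 4.

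**Figure D4:**
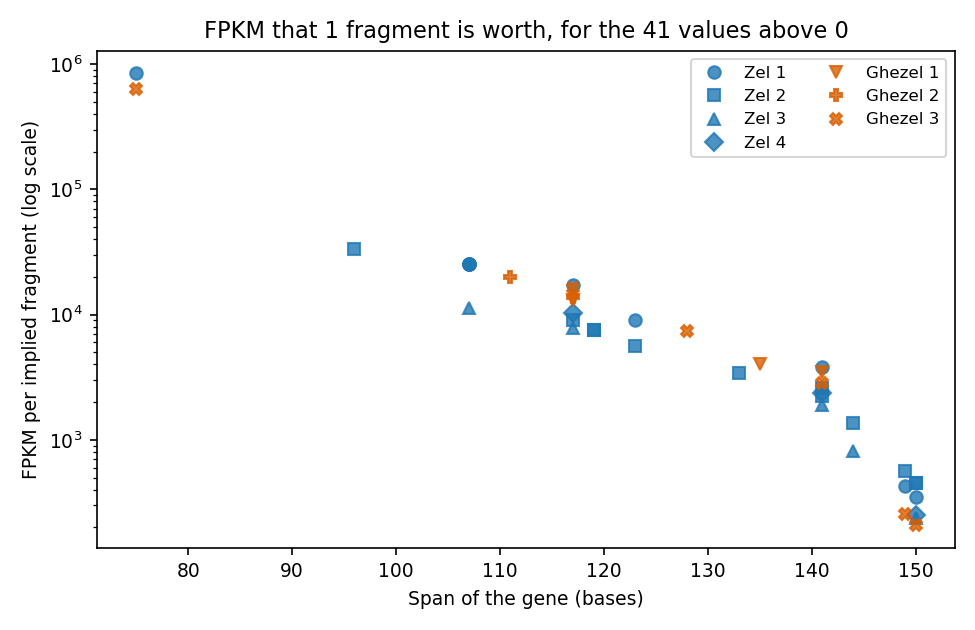
FPKM per implied fragment (vertical axis, log scale) against the span of the gene (horizontal axis, bases) for the 41 values above 0, with 1 symbol per library (blue, Zel; orange, Ghezel). The values fall from 843184 at 75 bases to 208 at 150 bases.

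For comparison, the median FPKM per implied fragment in a library was 1883 to 21333 at the short genes above 0. It was 2.88 to 6.68 at genes over 150 to 300 bases and 0.176 to 0.213 over 300 to 1000 bases. Over 1000 bases it was 0.0311 to 0.0404. The short genes therefore took 0.0415 to 0.704% of the summed FPKM of a library on 0.000104 to 0.000410% of its implied fragments. Ghezel 3 and Zel 1, the libraries where ENSOARG00000007815 was above 0, had the highest shares of FPKM, 0.704 and 0.391%.

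Detection followed place and span unevenly. On unplaced scaffolds 7 of 41 short genes (17.1%) were above 0 in some library, with 77 fragments, and on chromosomes 16 of 3382 (0.473%), with 39. Among longer reference genes the shares were 46.0% and 31.2%. By span, 1 of 405 genes of up to 75 bases and 1 of 1063 of 76 to 100 bases were above 0. None of the 423 genes of 101 to 106 bases was, against 6 of 579 of 108 to 125 bases and 10 of 474 of 126 to 150 bases. A listed 0 allows more FPKM the shorter the gene, 1890057 to 2529552 at 75 bases. These counts share libraries and depth and were not tested.

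At the limit of 150 bases, 2 of 11 genes of 149 bases and 2 of 14 genes of 150 bases were above 0. Just outside, of 6 genes each of the following 2 lengths none was above 0, and of 8 genes of 153 bases 1 was, ENSOARG00000000376 with 208 FPKM on 1 fragment in Zel 1.

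Many short genes lie inside a longer locus. Per library 1371 to 1515 of the 3423 (40.1 to 44.3%) lay inside one, and 923 to 1311 lay inside one with an FPKM above 0. Of the short genes above 0, 3 of 10, 2 of 12, 1 of 5 and 0 of 3 lay inside a longer locus in Zel 1, 2, 3 and 4. In Ghezel 1, 2 and 3 these were 0 of 3, 0 of 2 and 2 of 6. Such counts are too small to set against the share of all short genes and were not tested. Nearly all short genes inside a locus above 0 were themselves listed at 0, but so were short genes in general (99.3% in every library).

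Between the breeds, no short gene was called. Only reference IDs present in all 7 tables were tested, so loci under an ID of a single library took no part. In a limma fit over the 334 reference IDs with a mean FPKM of at least 1, with calls requiring a log2 fold change beyond 1.1 and an adjusted p under 0.05, 0 IDs were called (0% of those tested), and 16 had an unadjusted p under 0.05. All 23 short genes above 0 passed the filter, because 1 fragment already gives a mean FPKM above 1, and 1 of them, ENSOARG00000004071, had an unadjusted p under 0.05. Their Zel minus Ghezel difference was above 0 for 17 of the 23, with a median of 3.33 on the log2(FPKM + 1) scale, against 159 of 334 and a median of -0.08 over all IDs tested. This count says little, since a gene passed through the library where it was above 0 and 4 of the 7 libraries are Zel. In 0 of the 23 did all Zel libraries lie on one side of all Ghezel libraries, and in 17 of the 334 IDs (5.09%) they did, in 9 (2.69%) with Zel above Ghezel and in 8 (2.40%) below. Nothing can be read from the count of 0, because 20 of the 23 genes were above 0 in at most 2 libraries, so that zeros in both breeds made them overlap.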

How the data were processed

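The tail adipose tissue of 4 Zel and 3 Ghezel lambs was sequenced, 1 library per lamb. The p-values rest on the spread between these libraries, in which lamb, preparation and counting error cannot be told apart. According to the methods, the authors trimmed the reads, mapped them with TopHat and quantified them with Cufflinks, and kept reads longer than the shortest of these genes. The deposited tables, 1 per library, hold FPKM and the bounds of their confidence interval, which the authors had scaled to transcript length and library size. The labels name Oar_v3.1 as the genome and the methods a later version, so the build of the positions could not be settled.

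Spans were taken as end minus start of the deposited positions, whose starts count from 0, and printed starts were raised by 1 base. The 2 IDs listed at 2 positions were left out. The implied fragments are the square of 2 × FPKM divided by the distance from the FPKM to its upper bound, and those of the short genes were rounded to whole numbers. The short IDs missing from at least 1 table, 229 of 3652, are described in the closing section. The number of IDs matched to the RefSeq table (ARS-UI_Ramb_v3.0) was 0, so no symbol was used. Exact binomial intervals are at the 95% level, and a listed 0 is read as up to 3 fragments.

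Shares and sums were compared with exact permutation tests. Log2(FPKM + 1) was compared with limma 3.58.1 (trend, Benjamini-Hochberg adjustment) in R 4.3.3, over all reference IDs with a mean FPKM of at least 1, and the fit was tested on simulated data. Other steps used Python 3.11.15 with pandas 2.3.3, numpy 2.4.6 and scipy 1.17.1. The alternatives were the span limit, the fragments needed for detection, the status of a value, the IDs taken, pseudocounts of 0.1 and 100, filters, scalings, array weights, the naming of the files, the replicate number as a block and leaving out each library. The members, lists and tests were chosen with earlier results of these data known. The rule for named genes took those above 0 in all libraries, those called, the 10 with the most fragments, the 10 in most libraries after those, and genes that the study names or plots. ENSOARG00000017712, ENSOARG00000024193, ENSOARG00000025017, ENSOARG00000000376 and the partly listed genes fall outside it and were named after their values were seen.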

Additional observations from a re-analysis of the deposited data

Results flagged for a closer look

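ENSOARG00000018602 had 4 implied fragments in Zel 2 and 2 in each of the other Zel libraries, so the gap of Zel 2 to the nearest of them was the whole range of the breed (a ratio of 1.00). In 8 such checks of the Zel libraries this was the single value to stand apart, and it rests on a difference of 2 fragments. For continuous values such a gap arises by chance in about 1 of 20 groups. Small whole numbers tie often, and 3 tied libraries always give this ratio, so the rate does not hold here.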

How the results depend on the processing

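The share of short genes above 0, Zel minus Ghezel, was above 0 under each alternative run except within the second naming of the files, where it was 0. It was 0.0114 percentage points at a span limit of 100 bases, 0.0414 with at least 2 implied fragments, 0.278 within the first naming and 0.0682 to 0.156 when a library was left out. The difference of implied fragments was -0.167 at a span limit of 100 bases, -4.67 within the second naming of the files, and 0 to 7.33 without 1 library. Without ENSOARG00000018603, chosen after the data were seen, it was 5.17. The genes above 0 in all libraries numbered 0 at a span limit of 100 bases, 5 at 200 bases, and 1 to 2 without 1 library, with 2 when Ghezel 2 was left out. The share of short genes minus that of genes over 150 to 300 bases was -9.46 to -8.98 without 1 library. With limma, array weights called 1 short gene, ENSOARG00000004071 (adjusted p = 0.0157), among 146 reference IDs, and the estimate of the weights stopped before it converged. Leaving out 1 library called 0 to 1 short genes and 0 to 3 reference IDs, and only without Ghezel 3 was the count above 0. The log2 fold change of ENSOARG00000018603 was 0.23 under quantile normalization and -1.19 to -0.14 without 1 library, and its FPKM difference was 24626 within the second naming. The cause of these shifts was not tested.

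Same-numbered libraries of the breeds deviated together with correlations of -0.0104, 0.107 and 0.163 over 334 IDs, so the numbers were not taken as pairs. The correlations went with the naming of the files instead. Across the breeds, libraries that share a way of naming had 0.0162 to 0.182, and libraries that do not had -0.207 to -0.0104. This grouping was seen in the data and was not tested. Under that block of replicate numbers, the share differed by 0.156 percentage points (exact sign-flip permutation p = 0.500) and the fragments by 4.33, limma called 0 short genes and 0 reference IDs, and the log2 fold change of ENSOARG00000018603 was -1.1. Depth limits all values here, since a listed 0 allows up to 3 fragments.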

Other observations

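A further 229 short reference IDs were missing from at least 1 table. Per library 34 to 116 short IDs had no entry, and each of these was covered by a longer locus or stood at the same position under an ID of that library. Of the 229, 6 were above 0 somewhere, with 22 fragments in all. ENSOARG00000015719, of 105 bases on chromosome 21 from 49302735 to 49302839, held 15 of these. It had 31426 FPKM on 1 fragment in Zel 1, 72181 on 4 in Zel 2 and 106662 on 7 in Zel 3. In Ghezel 1, Ghezel 2 and Ghezel 3 it had 27298, 27379 and 30045 FPKM on 1 fragment each. Zel 4 gave the gene no entry, and an assembled locus of 1229 bases covered its position there. It was thus above 0 in all 6 libraries that list it. ENSOARG00000025067, of 141 bases on chromosome 17, had 3790 FPKM on 1 fragment in Zel 1 and 5155 on 2 in Zel 2.

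Each library also held 35 to 67 assembled loci of up to 150 bases under IDs of its own, away from the positions of the reference genes. They had 857 to 3399 implied fragments per library and 95.2 to 99.0% of the summed FPKM outside the mitochondrial chromosome, against 0.0415 to 0.704% for the short reference genes.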
